A study of Mus musculus with 15 samples.

Results

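Chromaffin cell transcripts were followed through 14 kidney RNA libraries of male C57BL/6 mice. They are 9 genes, Th, Dbh, Pnmt, Chga, Chgb, Scg2, Npy, Slc18a1 and Rab3c, taken by symbol from the 23866 gene rows of the count table. The members were chosen by their counts, which were high in 3 of the 4 ethanol libraries, EtOH_264, EtOH_271 and EtOH_272, and not in EtOH_273. Their values in those libraries and in the contrast of EtOH with olive oil are therefore a description, with no test. The 3 libraries with high counts are called the high EtOH libraries, with values in the order EtOH_264, EtOH_271, EtOH_272.

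The olive oil group (OO_259, OO_260 and OO_263) had the vehicle by intraperitoneal injection for 6 weeks. The CCl4 group had carbon tetrachloride, a solvent that injures liver and kidney, for 6 weeks (CCl4_6W_261 and CCl4_6W_262) or for 6 weeks followed by 4 weeks at a reduced dose (CCl4_10W_274 and CCl4_10W_275). The EtOH group had olive oil for 6 weeks and then ethanol for 4 weeks. The CCl4+EtOH group (CCl4_CCl4_EtOH_276, CCl4_CCl4_EtOH_277 and CCl4_CCl4_EtOH_278, with values in that order) had CCl4 for 6 weeks and ethanol for 4 weeks, and its titles name CCl4 a further time before ethanol. Ethanol and the 4 later weeks cannot be told apart in contrasts with olive oil. The CCl4 group pools both schedules, so in its contrasts treatment, schedule and time cannot be told apart. The labels give no age and do not say whether libraries came from separate animals, so p-values measure only the spread between these samples, which may be technical. Totals ran from 16.4 to 23.5 M counts. Another olive oil sample, OO_270, was not analysed here.

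Chromaffin cells are the catecholamine-secreting cells of the adrenal medulla, a neural crest tissue enclosed by the steroid-producing adrenal cortex above the kidney. They turn tyrosine into noradrenaline and adrenaline, load the amines into dense-core granules packed with granins and peptides, and release the granules when acetylcholine from splanchnic nerves opens their nicotinic receptors. The kidney itself is supplied by sympathetic axons, whose cell bodies lie in ganglia outside the organ.

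The promoters of the granin and tyrosine hydroxylase genes are known for a cAMP response element, the palindrome TGACGTCA bound by CREB, so the member promoters that held it or its variant TGACGTAA are shown, with that of Rab3c, which held neither, for comparison. RefSeq promoters on GRCm38.p6, from 250 bases before the start to 50 after it, were matched for 7 of the 9 members (all but Pnmt and Slc18a1). The 100 bases before the start are printed, 5′ to 3′ on the gene's strand, with TGACGTCA or TGACGTAA in capitals. Th lies at chr7:142899996-142900095, minus strand, Chga at chr12:102554841-102554940, plus strand, Chgb at chr2:132781542-132781641, plus strand, Scg2 at chr1:79440027-79440126, minus strand and Rab3c at chr13:110280207-110280306, minus strand.
Th: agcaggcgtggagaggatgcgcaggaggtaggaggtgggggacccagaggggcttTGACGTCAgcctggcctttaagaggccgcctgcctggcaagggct
Chga: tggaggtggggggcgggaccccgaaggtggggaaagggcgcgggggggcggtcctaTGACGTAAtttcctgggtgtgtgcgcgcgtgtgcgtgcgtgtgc
Chgb: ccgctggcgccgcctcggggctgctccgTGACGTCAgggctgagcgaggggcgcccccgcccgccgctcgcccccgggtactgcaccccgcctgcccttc
Scg2: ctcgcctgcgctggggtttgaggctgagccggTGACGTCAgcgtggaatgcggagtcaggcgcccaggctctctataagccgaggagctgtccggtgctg
Rab3c: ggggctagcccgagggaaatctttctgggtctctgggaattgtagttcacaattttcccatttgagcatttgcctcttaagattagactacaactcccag

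The whole element was found in Th, with its first base at -45 from the start, in Chgb at -72 and in Scg2 at -68. Chga carried the variant TGACGTAA at -44. In the search window neither form was present in Dbh, Npy or Rab3c, although Dbh and Rab3c were high in the same libraries as the others. Searched on both strands, TGACGTCA was held by 3 of the 7 member promoters and by 1.8% of 32544 distinct promoters in the table, and TGACGTNA, which includes it, by 4 of the 7 and by 2.95%. A match is a description of the letters, not a bound site.

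The synthesis enzymes were present in 3 libraries and nearly absent from the other 11. Levels are in CPM, a gene's counts relative to the library's total after TMM scaling. Th, the rate-limiting enzyme of catecholamine synthesis, stood at 22.5, 7.57 and 19.6 CPM in the high EtOH libraries. It had 0 counts in all 11 others, EtOH_273 included, where 3 counts over the 11 libraries would have been 0.0136 CPM. Dbh, which makes noradrenaline from dopamine, stood at 16.7, 5.98 and 14.5 CPM in the same 3 libraries. Its only other count fell in CCl4_10W_274. Pnmt, which methylates noradrenaline to adrenaline and is known to be induced by glucocorticoid from the cortex, stood at 7.54, 2.87 and 2.90 CPM and had 0 counts elsewhere. For these enzymes the EtOH group was split, and EtOH_273 lay with the olive oil libraries. In bulk tissue, fewer cells of a type and less RNA per cell cannot be told apart.

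The granins were the most counted of the members that shared this pattern. Chga, chromogranin A, which takes part in forming dense-core granules, was counted 1232, 499 and 917 times in the high EtOH libraries and at most 4 times in any other library. That corresponds to 61.1, 24.7 and 44.99 CPM. Chgb, chromogranin B, reached 89.6, 31.6 and 65.0 CPM, against at most 0.182 CPM in the others. Scg2, the precursor of secretoneurin, reached 45.2, 19.98 and 32.1 CPM, with 5 counts in the 11 others together. EtOH_264 was highest and EtOH_271 lowest for each granin, as for Th and Dbh. Divided by the length of the longest coding transcript, the means of the 3 libraries were 23.1 CPM per kb for Chga, 22.6 for Chgb, 12.9 for Scg2, 8.48 for Th, 4.85 for Dbh and 3.84 for Pnmt. On that per-length scale the granins and Npy, at 17.1, stood above the enzymes, and Rab3c, at 0.238, below them.

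**Figure D1:**
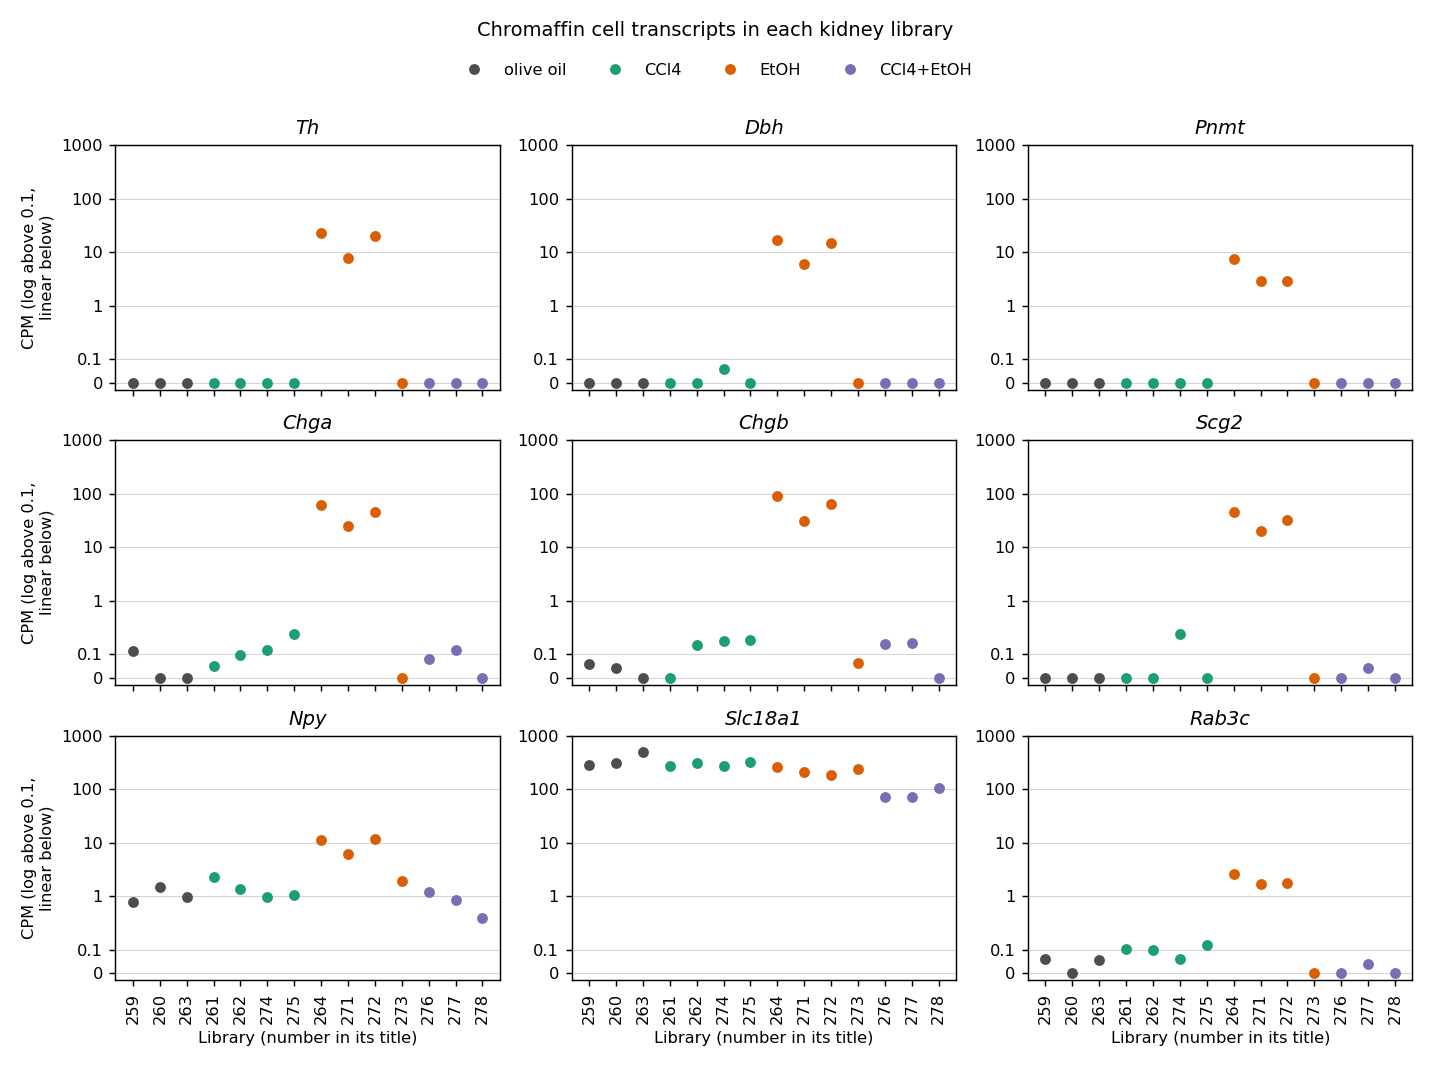
Level of the 9 transcripts in each library, in CPM on an axis that is logarithmic above 0.1 and linear below, coloured by group, 1 point a library. Th, Dbh, Pnmt, Chga, Chgb, Scg2 and Rab3c stand apart from all others in the high EtOH libraries, Npy does so above a level present everywhere, and Slc18a1 does not.

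Npy, a peptide co-released with catecholamines and also made in sympathetic neurons, had a level in every library. It stood at 11.4, 6.08 and 11.6 CPM in the high EtOH libraries and between 0.389 and 2.23 CPM in the 11 others, with EtOH_273 at 1.90 CPM. Of all its counts 69.5% lay in the 3 libraries, against 99.4% for Chga and 92.4% for Rab3c. The 2 ranges did not overlap, but the gap was far narrower than for the granins.

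Slc18a1 did not share the pattern. It encodes VMAT1, the transporter that loads amines into chromaffin granules, and it was the most counted of the 9 genes in every library. The high EtOH libraries held 254.9, 205 and 182 CPM, and EtOH_273, without the other transcripts, held 233 CPM. The olive oil libraries held 279, 312 and 491 CPM. Only 20.1% of its counts lay in the 3 libraries, and its share against the summed counts of Th, Dbh, Pnmt, Chga, Chgb, Scg2 and Npy (7 genes) was 50.1%, 67.5% and 48.9% in the high EtOH libraries. The label of a chromaffin transcript thus did not hold for Slc18a1 in these kidneys, and a contribution from chromaffin cells could not be separated from the level present in all libraries.

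Summed over its libraries, EtOH exceeded olive oil by at least 254-fold for Th, at least 190-fold for Dbh, at least 68.1-fold for Pnmt and at least 498.5-fold for Scg2, with 3 counts over the olive oil group as the floor. Olive oil held 2 counts each of Chga, Chgb and Rab3c. The ratios were 1006 for Chga with a counting interval of 278.1 to 8308, 1432 for Chgb with 396 to 11830, and 46.3 for Rab3c with 12.6 to 387. Npy had a ratio of 7.23 (5.60 to 9.49) and Slc18a1 one of 0.606. These intervals, at a level of 0.95, cover counting error only, and each ratio averages 3 libraries that held the transcripts with 1 that did not. In this contrast edgeR called 27 of 16105 genes, 0.168%, and no count of members is read against it because the contrast chose them.

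The filter on low counts kept 9 of 9 members, but 7 of them passed through the high EtOH libraries alone: without those libraries only Npy and Slc18a1 remained among 16777 genes tested.

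Transcripts of the adrenal cortex were present in the same 3 libraries. The summed level of 12 cortex markers was 1020, 964 and 1432 CPM in the high EtOH libraries and 109.8 CPM in EtOH_273. It ran from 109.9 to 122 CPM after olive oil, 103 to 129 after CCl4 and 75.7 to 103 after CCl4+EtOH, and Fdx1, which kidney also expresses, averaged 57.2 CPM over the 11 libraries other than the high EtOH libraries. Cyp11b2, the aldosterone synthase of the cortex, was at 9.02, 9.50 and 11.9 CPM in the 3 libraries and at 0 counts in all others. Pancreatic islet markers, another source of granins, summed to at most 0.147 CPM in the EtOH group and 0.365 CPM in any library. Markers of neurons and axons, a list that includes the exocytosis gene Snap25, summed to 12.2, 9.35 and 10.65 CPM in the high EtOH libraries, to 4.12 in EtOH_273 and to 6.50 to 9.89 in the other groups. Schwann cell markers were between 42.4 and 44.5 CPM in all 4 EtOH libraries.

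Cortex and medulla transcripts did not keep 1 proportion. For 5 cortex markers that were low elsewhere (Cyp11a1, Cyp11b1, Cyp11b2, Cyp21a1 and Nr5a1, chosen after their values were seen) the 7 chromaffin genes had 57.0 counts per 100 cortex counts in EtOH_264, 25.9 in EtOH_271 and 30.9 in EtOH_272. EtOH_264 thus carried the most chromaffin transcript per cortex transcript. From EtOH_271 to EtOH_264 the level of Th, Dbh, Pnmt, Chga, Chgb and Scg2 was 2.26 to 2.97 times higher, whereas the 9 of 12 cortex markers that averaged at least 10 times their level in the other libraries had ratios of 0.925 to 1.41. The remaining 3, Fdx1, Fdxr and Scarb1, which had a level in every library, had ratios of 0.854, 1.065 and 0.908. The highest interval bound among the 9 was 1.496, for Mc2r, and the lowest among the 6 chromaffin genes was 1.93, for Pnmt, so these sets did not overlap within counting error. From EtOH_271 to EtOH_272 they did overlap, at 1.22 to 2.125 for the 9 cortex markers and 1.01 to 2.59 for the 6 chromaffin genes. Npy, which had a level in every library, was not among the 6. Its ratio of EtOH_264 to EtOH_271 was 1.87 (1.492 to 2.34), so its interval met that of Mc2r. For EtOH_272 to EtOH_271 the Npy ratio was 1.91. Adipocyte markers were also highest in EtOH_264, at 1043 CPM against 427 in EtOH_271, 287 in EtOH_272 and 346 in EtOH_273, and their part in the result was not tested.

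**Figure D2:**
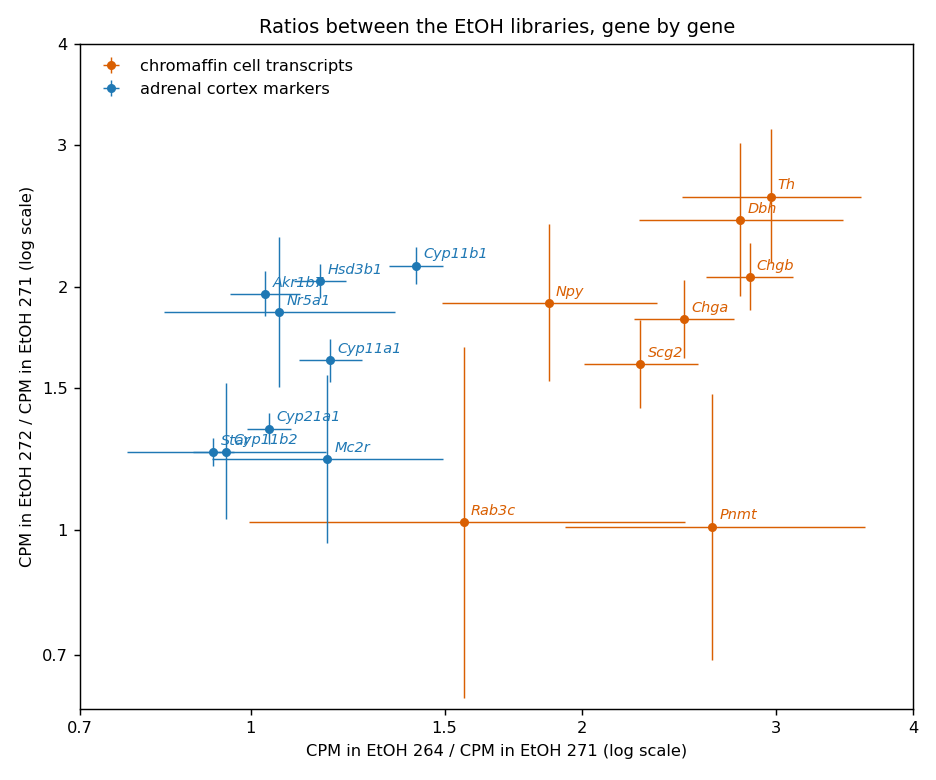
For each gene, the level in EtOH_264 over that in EtOH_271 (horizontal) and in EtOH_272 over EtOH_271 (vertical), both on log scales, with lines for exact intervals of counting error. The 9 cortex markers that averaged at least 10 times their level in the other libraries lie at 0.925 to 1.41 on the horizontal axis. The enzymes and granins lie at 2.26 to 2.97, and Rab3c at 1.56 and Npy at 1.87 lie between them.

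Within the chromaffin set Chga kept nearly the same proportion, and Pnmt moved the most. Of the summed counts of the 7 genes, Chga made up 24.1%, 25.0% and 23.6% in the high EtOH libraries, and Chgb 35.3%, 32.0% and 34.1%. Dbh made up 6.56%, 6.06% and 7.59%. The intervals of 3 other genes did not all overlap. Th made up 8.85%, 7.67% and 10.3%, with 6.54 to 8.92 in EtOH_271 and 9.33 to 11.3 in EtOH_272. Scg2 made up 17.8%, 20.2% and 16.8%, with 18.5 to 22.1 in EtOH_271 and 15.7 to 18.05 in EtOH_272. Npy made up 4.47%, 6.16% and 6.10%, with 3.92 to 5.07 in EtOH_264 and 5.15 to 7.31 in EtOH_271. The share of Pnmt was 2.97% (exact binomial interval 2.52 to 3.47) in EtOH_264 and 2.91% (2.21 to 3.74) in EtOH_271, but 1.52% (1.16 to 1.96) in EtOH_272. Of the counts of the 3 enzymes, Pnmt made up 16.2% (13.9 to 18.7) in EtOH_264, 17.5% (13.5 to 22.0) in EtOH_271 and 7.84% (6.02 to 9.99) in EtOH_272. The adrenaline-forming enzyme was therefore lower relative to Th and Dbh in EtOH_272 than in the other two, beyond counting error. With 1 library each, the spread between samples is not covered by these intervals.

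Rab3c, a small GTPase of secretory vesicles and a relative of the vesicle gene Rab3a, followed the chromaffin genes in which libraries held it. It was counted 53, 34 and 35 times in the high EtOH libraries, or 2.63, 1.68 and 1.72 CPM. EtOH_273 had 0 counts and the other libraries at most 2, or 0.122 CPM. Across the 14 libraries its Pearson r of log2(CPM + 0.5) was 0.994 with Chga, 0.991 with Chgb, 0.987 with Th and Dbh, 0.933 with Npy and 0.0693 with Slc18a1. These r values mostly measure 3 high against 11 low libraries, and they were as high for Caln1, at 0.990, and Dlk1, at 0.984, which are no members.

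Among the 3 libraries the proportion of Rab3c was less settled. Its share beside the 7 genes was 1.02% (0.768 to 1.34) in EtOH_264, 1.675% (1.16 to 2.33) in EtOH_271 and 0.893% (0.623 to 1.24) in EtOH_272, and 1.09% (0.909 to 1.30) over the EtOH libraries. The 3 intervals overlapped, narrowly for EtOH_271 and EtOH_272. Its ratio of EtOH_264 to EtOH_271 was 1.56 with an interval of 0.997 to 2.48. That interval reaches the cortex markers, up to 1.41, Npy, at 1.87, and the lower of the enzymes and granins, from 2.26. The Rab3c ratio of EtOH_272 to EtOH_271 was 1.02 (0.619 to 1.69). The values of Th at 2.59, Dbh at 2.42, Chgb at 2.06, Npy at 1.91 and Chga at 1.82 lay above that interval. Scg2 at 1.61, Pnmt at 1.01 and 5 of the 9 cortex markers, such as Star at 1.25, lay within it. Whether Rab3c keeps the granins' proportions or those of cortex transcripts was not detectable at this depth, with 122 counts over the 3 libraries.

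**Figure D3:**
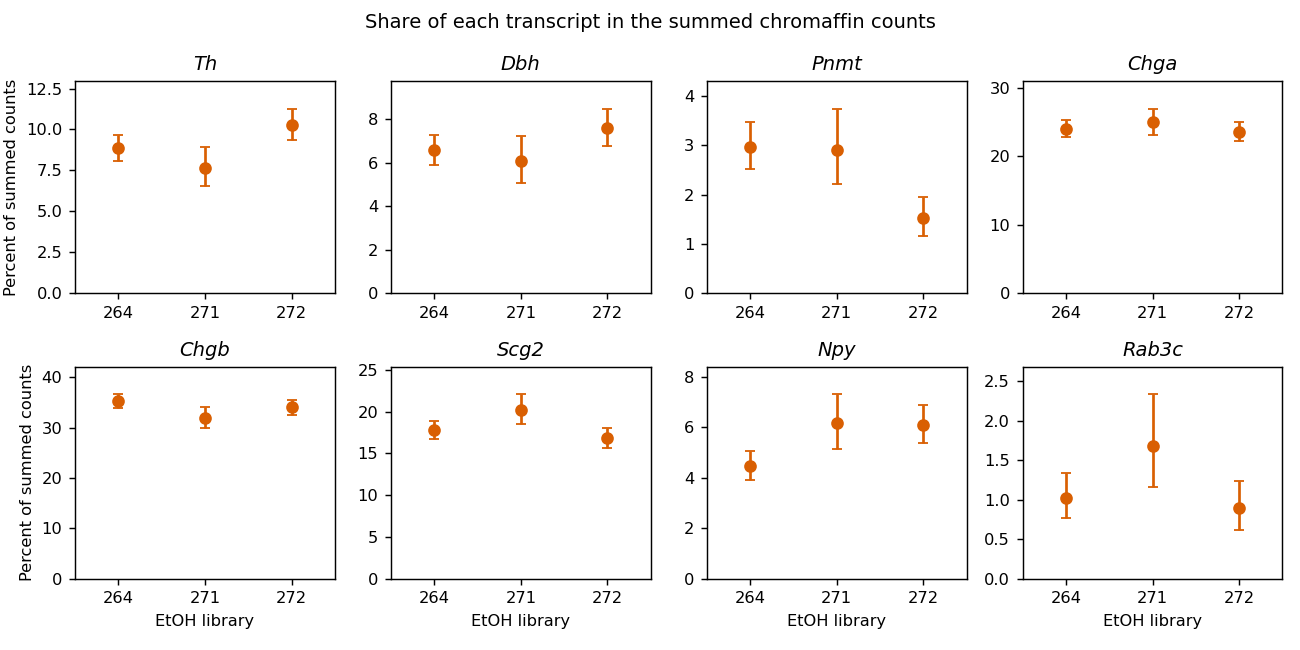
Share of each transcript in the summed counts of Th, Dbh, Pnmt, Chga, Chgb, Scg2 and Npy (for Rab3c, added to that sum), in percent, for the high EtOH libraries, with exact binomial intervals. Every axis starts at 0. Pnmt is lower in EtOH_272, at 1.52%, and Rab3c is highest in EtOH_271, at 1.675%.

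By the same likeness measure, the genes closest to the mean of the 7 chromaffin genes were Caln1 at 0.999, Tbx20 at 0.992, Cyp11b2 at 0.991, Nr5a1 and Gal at 0.989, Bcan at 0.988, Dlk1 at 0.987, Rims4 at 0.985, Star at 0.984 and Akr1cl at 0.983. Cyp11b2, Nr5a1 and Star are genes of the steroid-producing cortex, so an r near 1 across these 14 libraries did not separate cortex from medulla. Caln1, a calcium-binding protein of neurons, was counted 17, 12 and 16 times in the 3 libraries and in no other.

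Other genes of chromaffin function, 71 that are no members in 5 lists, were described in the same libraries. In EtOH vs olive oil 48 of the 71 were tested and edgeR called 0 of them. At an unadjusted p under 0.05 there were 12, beside 10.4% of all genes tested, and DESeq2 called 3, Kcnk3, Maob and Ptprn, beside 2.17% of all genes. Without EtOH_273 edgeR called 2, Gal and Kcnk9, beside 0.616%. These 5 genes are named after their values were seen. Gal and Kcnk9 reached at most 0.0883 and 0 CPM in the 11 other libraries. They passed the filter on low counts through the high EtOH libraries alone, so their calls are a description with no test. Both are among the 48 in every contrast. The median log2 difference of the 48 was 0.15, against 0.00 for all genes tested, with the high libraries averaged with EtOH_273.

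Of 10 genes of catecholamine synthesis, transport and breakdown, Slc6a2, the noradrenaline transporter, was the one at least 4 times higher in EtOH than in olive oil. It stood at 1.44, 0.396 and 0.294 CPM in the high EtOH libraries and at 0 in EtOH_273, within reach of the 0.302 CPM of CCl4_CCl4_EtOH_278. Ddc, which makes dopamine in chromaffin cells and is abundant in proximal tubule, lay at 126, 109, 164.5 and 152 CPM in the high EtOH libraries and EtOH_273, so EtOH_273 was inside the range of the rest. Among granule genes, Ptprn stood at 3.62, 1.88 and 3.34 CPM against 0.380 in EtOH_273. It was not confined to those libraries: CCl4_CCl4_EtOH_276 held 1.87 CPM, close to EtOH_271, and CCl4_CCl4_EtOH_277 held 1.41 CPM. Resp18, a granule protein, had 59, 9 and 38 counts and none in the 11 others. Gal, the peptide galanin, had 39, 21 and 22 counts, and Scg3, secretogranin III, 25, 10 and 16, with none in EtOH_273 for either.

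Among exocytosis genes, Snap25, a SNARE protein, had 26, 10 and 40 counts, and the vesicle protein Syt4 14, 9 and 17. Cadps, which primes dense-core granules, had 8, 4 and 6. Of 12 transcription factors of the sympathoadrenal lineage 5 had counts enough to be tested, among them Gata2, Gata3 and Sox11. In EtOH vs olive oil edgeR called 0 of the 5, with 0 at an unadjusted p under 0.05, DESeq2 called 0, and their median log2 difference was 0.01. Among those too low for the test, Hand2 had 21, 8 and 28 counts and at most 1 in any other library, and Hand1 had 9, 4 and 10 and at most 2. Isl1 had 7, 0 and 5 counts and up to 3 in other libraries, so it did not separate them. Of the receptors and channels, Chrna3, a subunit of the ganglionic nicotinic receptor, had 26, 9 and 19 counts and Kcnk9, an acid-sensitive potassium channel, 26, 23 and 51, with 0 in EtOH_273 for both. Kcnk3, a related channel, stood at 29.9, 18.3 and 26.9 CPM and at 1.08 in EtOH_273. CCl4_10W_274 and CCl4_CCl4_EtOH_278 held 8.27 and 8.59 CPM of it. Cacna1b had 5, 4 and 6 counts, no more than the 6 of CCl4_10W_275.

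Among libraries outside the EtOH group, CCl4_10W_274 held a trace of cortex transcripts. The 5 cortex markers had 155 counts there, or 9.16 CPM, against at most 0.707 CPM in every library other than it and the 3 EtOH libraries. Th and Pnmt had 0 counts in CCl4_10W_274, Scg2 had 4, Chgb 3, Chga 2 and Dbh 1. Traces of the granins were not particular to it. The 6 enzymes and granins summed to 10 counts there and to 8, 7 and 6 in CCl4_CCl4_EtOH_277, CCl4_10W_275 and CCl4_CCl4_EtOH_276, where the 5 cortex markers had 5, 2 and 4 counts. Chga reached 4 counts in CCl4_10W_275, which also held 6 counts of Chrna3. Adipocyte markers summed to 806 CPM in CCl4_10W_274 and to 317 to 423 CPM in the other CCl4 libraries. Their part in these traces was not tested.

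The contrasts without the EtOH group compare levels that did not choose the members. Their SEs and p-values are not independent of that choice, because the spread was estimated over all 14 libraries, the high EtOH libraries included. Only Npy and Slc18a1 had counts enough for these contrasts. The other 7 members had at most 20 counts each over the 11 libraries. CCl4 vs olive oil asks what the solvent changed on its own. Neither gene passed, beside 0% of 16105 genes called by edgeR. At an unadjusted p under 0.05 there were 640 genes, and DESeq2 called 1. After CCl4 Slc18a1 was at 292 ± 26.7 CPM (SD, n = 4), and after olive oil at 361 ± 114 CPM (SD, n = 3), a log2 difference of -0.31 ± 0.19 (SE) with overlapping groups. Npy differed by 0.35 ± 0.58. Of the 48 other chromaffin genes edgeR called 0, with 3 at an unadjusted p under 0.05, beside 3.97% of all genes, and DESeq2 called 0.

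Slc18a1 fell in CCl4+EtOH. The libraries of that group held 71.3, 69.6 and 105 CPM, below each of the 11 others, the lowest of which was EtOH_272 at 182 CPM. The group mean was 82.1 ± 20.1 CPM (SD, n = 3). Against olive oil the log2 change was -2.14 ± 0.22 (SE), adjusted p 4.53e-05 by edgeR, and against CCl4 it was -1.83 ± 0.21, adjusted p 9.09e-05. In the first contrast 35.4% of all genes were called and 16.6% fell, and in the second 34.8% were called and 16.2% fell. Npy differed by -0.42 ± 0.63 (adjusted p 0.632) from olive oil and by -0.77 ± 0.59 (adjusted p 0.330) from CCl4 in edgeR's test, and passed in neither. In order of group means Slc18a1 ran olive oil, CCl4, EtOH at 219 ± 31.7 CPM (SD, n = 4), CCl4+EtOH. The ranges of olive oil and CCl4 overlapped, while EtOH lay below both and CCl4+EtOH below EtOH.

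Of 10 kidney identity markers 3 fell in CCl4+EtOH vs olive oil and none rose in edgeR's test, with a median log2 change of -0.41 against 0.02 for all genes, and their part in the fall of Slc18a1 was not tested. Their summed level was 45300 to 50150 CPM after olive oil and 12670 to 22060 after CCl4+EtOH. Most of the difference in that sum was Kap, an androgen-regulated proximal tubule transcript, with group means of 27610 and 3370 CPM. Library CCl4_CCl4_EtOH_278 stood apart in Slc34a1, the phosphate carrier of the proximal tubule, at 5747 CPM against 1544 and 1916 in the other two, and was also the highest of the 3 in Slc18a1, though below every library of the other groups. Ddc also fell, with a log2 change of -0.96 ± 0.23 against olive oil (adjusted p 0.0058 by edgeR), with 45.8, 66.9 and 92.9 CPM in CCl4+EtOH against 105 to 165 after olive oil.

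**Figure D4:**
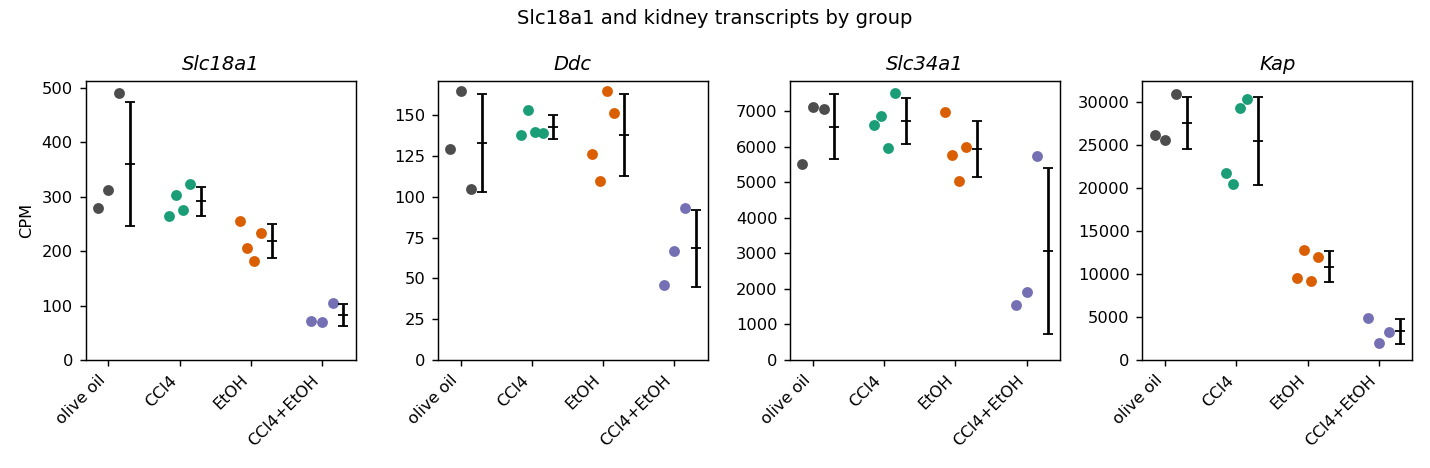
Level of Slc18a1 and of the kidney transcripts Ddc, Slc34a1 and Kap in CPM, 1 point a library, with the group mean and SD as a bar beside the points. Slc18a1 is at 69.6 to 105 CPM in the 3 CCl4+EtOH libraries, Kap is low in all 4 EtOH libraries too, at 9217 to 12840 CPM, and in Slc34a1 CCl4_CCl4_EtOH_278, at 5747 CPM, lies with the other groups.

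Of the 48 other chromaffin genes tested, 7 rose and 5 fell in CCl4+EtOH vs olive oil, beside 18.9% and 16.6% of all genes, with a median log2 change of 0.21 against 0.02 for all genes. Against CCl4, 9 rose and 6 fell, beside 18.7% and 16.2% of all genes, with a median of 0.11 against 0.02. In both contrasts the share of these genes called was not above that of all genes. Both contrasts share the CCl4+EtOH libraries. The lists name genes by function. Over the 11 libraries other than the high EtOH libraries Th and Pnmt had 0 counts and Dbh had 1. These changes are therefore not placed in chromaffin cells. In catecholamine metabolism 2 of 9 rose and 2 fell against olive oil. Maoa, the amine-degrading oxidase, rose by 0.71 ± 0.15 on the log2 scale and Gch1, which starts synthesis of the hydroxylase cofactor, by 1.19 ± 0.39. Qdpr, which recycles that cofactor, changed by -0.54 ± 0.18. The calls of Gch1 and Qdpr were each lost without CCl4_CCl4_EtOH_276 (adjusted p 0.0938 and 0.152 by edgeR), CCl4_CCl4_EtOH_277 (0.0995 and 0.149), OO_260 (0.0593 and 0.108) or OO_263 (0.0533 and 0.0757), and that of Gch1 without OO_259 (0.0945). Of 8 granule genes Vgf alone rose. It had 37 and 39 counts in CCl4_CCl4_EtOH_276 and CCl4_CCl4_EtOH_277 and 1 in CCl4_CCl4_EtOH_278, and 0 counts after olive oil and CCl4, so it was at least 20.4-fold higher than after olive oil and at least 25.6-fold higher than after CCl4. Vgf also had 7, 3 and 13 counts in the high EtOH libraries and 0 in EtOH_273. Beyond CCl4_CCl4_EtOH_276 and CCl4_CCl4_EtOH_277 its highest level was 0.638 CPM, in EtOH_272. It entered 13 of the fits that left out 1 library, where Slc18a1 entered 14. Vgf thus passed the filter on low counts with the help of a high EtOH library, and its call is not independent of that group. Its call was lost without CCl4_CCl4_EtOH_276 or CCl4_CCl4_EtOH_277, at adjusted p 0.0665 and 0.0699 against olive oil in edgeR, and without OO_259, OO_260 or OO_263, at 0.0537, 0.0655 and 0.0590. CCl4_CCl4_EtOH_276 and CCl4_CCl4_EtOH_277 held 0 counts of Th, Dbh and Pnmt.

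In granule exocytosis 2 of 15 rose and 2 fell against olive oil. Rab3d, a secretory granule GTPase, rose by 0.78 ± 0.16, with 25.1 to 25.8 CPM in CCl4+EtOH against 14.1 to 15.6 after olive oil. Rab27a changed by -0.71 ± 0.19 and Rab3a by -0.56 ± 0.20, and both calls were lost without CCl4_CCl4_EtOH_276, at adjusted p 0.0516 and 0.165 in edgeR. That of Rab3a was also lost without CCl4_CCl4_EtOH_277, OO_260, OO_263 or CCl4_6W_262, at 0.162, 0.1425, 0.0813 and 0.0502. Cadps2, at 0.42 ± 0.16, lost its call in most fits that left out a library. Of 5 transcription factors Sox11 rose, by 4.75 ± 0.70, from at most 0.469 CPM after olive oil to 10.7, 8.96 and 2.12 CPM in CCl4+EtOH. Of 11 receptors and channels Scn3a, a sodium channel, rose by 1.98 ± 0.57 and Cacna1d, a calcium channel, changed by -0.43 ± 0.10. The Scn3a call was lost without CCl4_CCl4_EtOH_277 (adjusted p 0.0844 by edgeR), as it was without OO_260 or OO_263. Against CCl4 the processing enzymes Cpe and Pam were also called, at 1.08 ± 0.37 and -0.35 ± 0.11, as was the nicotinic subunit Chrnb2 at -0.97 ± 0.33. All 3 calls were lost without CCl4_CCl4_EtOH_277, at adjusted p 0.143, 0.1255 and 0.129 in edgeR, and without CCl4_6W_262, at 0.0838, 0.0719 and 0.0682. The call of Cpe was also lost without CCl4_CCl4_EtOH_276, CCl4_6W_261 or CCl4_10W_274, that of Chrnb2 without CCl4_CCl4_EtOH_276, CCl4_6W_261 or CCl4_10W_275, and that of Pam without CCl4_10W_275.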

How the data were processed

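Kidneys were frozen, their RNA was isolated with a QIAGEN RNeasy kit, and Illumina libraries were made, per the labels' protocols. The table deposited by the authors holds raw counts per gene symbol, not normalized. GSNAP and mm9 are named per the submitters' processing notes. How reads were counted, including annotation and strand, is not given in the sources used here, and overlapping genes cannot be told apart.

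Of 23893 rows, 27 that carry a date in place of a symbol (0.169% to 0.209% of a library's counts) were left out. No pair of libraries within a group agreed within sampling noise (chi-square per gene at least 9.79 over 18 pairs). The highest values were 150 and 124, for CCl4_CCl4_EtOH_278 with CCl4_CCl4_EtOH_276 and with CCl4_CCl4_EtOH_277. All remaining pairs were at most 26.7, so CCl4_CCl4_EtOH_278 stood apart in its group over all genes. No member had the same counts as another row. Genes passing filterByExpr entered edgeR's quasi-likelihood test (edgeR 4.0.16, R 4.3.3; robust, TMM-scaled) in 1 fit of 14 libraries in 4 groups. P-values were adjusted by Benjamini-Hochberg over 16105 genes, with a threshold of 0.05. SE was taken as |log2 change|/√F. Exact intervals, at a level of 0.95, used scipy 1.17.1 and cover counting error only. Transcript lengths are of GENCODE on GRCm38, a later build than mm9, and promoters of RefSeq on GRCm38.p6.

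Members and lists were chosen with earlier results of these data known. Named genes were the members, up to 4 of each pathway list past the threshold by smallest p, up to 4 with an EtOH mean at least 4 times that of olive oil, the first genes of marker lists and the 10 most alike by r. Exceptions are marked where they occur, and Cpe, Pam and Chrnb2 come from the same rule. Alternatives were DESeq2 1.42.0, its size factors in edgeR, other filters, fits of the groups compared alone and each library left out. A fit without EtOH_264, EtOH_271 and EtOH_272 was added after seeing the data. On simulated counts for CCl4+EtOH vs olive oil, with 200 of 16105 genes changed, 31.9% of 1.5-fold, 55.4% of 2-fold and 87% of 4-fold changes were recovered, with 13 false among 124 calls.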

Additional observations from a re-analysis of the deposited data

Results flagged for a closer look

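In the CCl4 group, CCl4_10W_274 lay apart from its fellows for 2 members: Dbh at 0.0591 CPM, which is 1 count, and Scg2 at 0.236 CPM, which is 4 counts, where the other 3 libraries had 0. In the EtOH group, the summed level of lymph node and lymphocyte markers was 8.16 CPM in EtOH_271 and 4.36 to 4.76 CPM in the other 3. Each was the highest library of its group, set apart by a gap above Dixon's 95% critical value. For Dbh and Scg2 the criterion is met by any count where the other 3 libraries have 0, so it tests nothing there. Of 32 groups of values examined, chance sets apart about 1 in 20.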

How the results depend on the processing

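Slc18a1 and Npy kept their direction and their side of the threshold in every alternative run for CCl4 vs olive oil, CCl4+EtOH vs olive oil and CCl4+EtOH vs CCl4. Without EtOH_264, EtOH_271 and EtOH_272 the latter 2 contrasts called 14.6% and 14.4% of genes lower. Over 31 single-gene results, 527 of 616 alternatives gave the same call and 89 lost it. Vgf was not tested in every alternative, because it did not always pass the filter on low counts. The number of genes called moved as follows. DESeq2 called 1 gene in CCl4 vs olive oil and 350 in EtOH vs olive oil, 3 of them among the other chromaffin genes. Fits of the compared groups alone called 94 in EtOH vs olive oil and 3276 in CCl4+EtOH vs olive oil, with 7 of the other chromaffin genes there and 8 in CCl4+EtOH vs CCl4. With EtOH_273 as the only EtOH library, assumed to vary like the other groups, 1 gene was called in EtOH vs olive oil. Leaving out each library in turn gave 3 to 154 calls in EtOH vs olive oil, where 0 to 2 other chromaffin genes were called, 3904 to 7417 in CCl4+EtOH vs olive oil and 3480 to 7396 in CCl4+EtOH vs CCl4. In the last 2 the other chromaffin genes called numbered 6 to 19, with 19 without CCl4_CCl4_EtOH_278 in the contrast with olive oil and 6 without CCl4_CCl4_EtOH_277 in both. CCl4 vs olive oil stayed at 0 in each. The Rab3c share over the EtOH libraries was 1.43% beside the granins alone and 5.68% beside the enzymes alone, which follows from the smaller sums, and 0.964% to 1.20% without 1 library. With a pseudocount of 2, 5 of the 10 genes most like the chromaffin mean were shared. The causes of the other shifts were not tested. No paired analysis was possible because each title number belongs to 1 library alone. At these depths, transcripts with few counts, such as Rab3c, leave ratios between libraries wide.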

Other observations

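Over the whole table, 40 genes had at least 50 counts in EtOH_264, EtOH_271 and EtOH_272 together and at least 10 times the mean level of the 11 other libraries. Of these, 7 were members, and the others named here were chosen after their values were seen. For 17 genes the ratio of EtOH_264 to EtOH_271 was at or below 1.41, the highest of 9 cortex markers. They were those 9 and 8 others, among them Kcnk9 from the chromaffin lists at 1.13 (0.621 to 2.08) and the imprinted genes Peg10 at 1.21 (0.973 to 1.51) and Meg3 at 1.33 (1.19 to 1.49). For 8 genes that are no members it was at or above 2.26, the lowest of the 6 chromaffin enzymes and granins. They included Scg3, Snap25, Hand2, Chrna3 and Resp18 from the chromaffin lists, and Prss35, an inactive serine protease homologue, at 2.62 (2.10 to 3.28). Agtr2, the type 2 angiotensin receptor, had 42 counts in EtOH_264, 2 in EtOH_271 and 13 in EtOH_272, and its ratio was 21.05 (5.475 to 179.5). Dlk1, a Notch ligand homologue, lay between the sets at 1.86 (1.49 to 2.34), as did Gal at 1.86 (1.07 to 3.33) and Rab3c.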
